A study of Haplochromis burtoni and Lepidiolamprologus elongatus and Tropheus moorii with 25 samples.

Results

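Innate immune sensing and inflammatory signalling genes were described in single-cell RNA sequencing of the intestine of African cichlid fishes. The members are the features whose symbol begins with, or equals, the name of a Toll-like receptor, NOD or NLR sensor, myd88, irak, traf, tnf, ripk, NF-κB, IκB kinase, irf, stat, jak, tyk2, ifih1, mavs, sting, tbk1, caspase or socs gene. This rule found 73 of the 42622 features in the list shared by all libraries, of which 12166 carry a symbol other than a bare LOC identifier. The members fall into 10 sensors, 16 adaptors and kinases, 12 NF-κB genes, 12 genes with a tnf name, 7 irf genes, 5 JAK and STAT genes, 7 socs genes and 4 caspase-named genes. Some members carry only the name and lie outside the core pathways, such as the caspase-associated casp8ap2, the ciliary gene traf3ip1 and the epithelial kinase ripk4.

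The series holds 25 libraries of polyadenylated RNA from dissociated intestine, 1 library from each of 25 species, with no treatment, age or sex in the labels. Cells were captured by 10x Genomics 3′ chemistry, which counts each captured molecule through a unique molecular identifier (UMI). The barcodes used here have at least 500 UMIs and 250 genes and were not scored as doublets, which left 98143 barcodes. A library held between 1063 (Trematocara zebra) and 6544 (Shuja horei) of them. Kept UMIs numbered 6606221 in the shallowest library, Petrochromis orthognathus, and 29681170 in the deepest, that of Boulengerochromis microlepis. With 1 library per species, no difference between species has a replicate, and p-values measure the spread between these libraries.

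Cells sense microbes through Toll-like receptors at membranes and through NOD-like and RIG-I-like receptors in the cytosol. Adaptors such as MyD88 and TRAF proteins pass the signal to the IκB kinases, which release NF-κB dimers of REL, RELA, RELB, NFKB1 and NFKB2 products from their inhibitors, and to TBK1, which acts on interferon regulatory factors (IRFs). Cytokine receptors signal in parallel through JAK kinases and STAT factors. SOCS proteins mainly dampen this JAK and STAT route, and the deubiquitinase A20 (tnfaip3) dampens the route to NF-κB. In the gut these pathways work in immune cells and in the epithelium that faces the microbiota.

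Within each library the members were followed in 3 classes of barcodes. A barcode belonged to the csf1r class, the lck class or the mogat2 class when it held at least 1 UMI of that gate gene and 0 UMIs of the other 2. csf1r encodes a growth factor receptor of macrophages, lck a kinase of T cell receptor signalling, and mogat2 an enzyme of dietary fat resynthesis in enterocytes. The classes held 3995, 12639 and 14837 barcodes with 17573932, 34664508 and 171037872 UMIs, so equal UMI numbers stand for different levels. Sums over at least 10 barcodes were available in 24 libraries for csf1r and in 25 for lck and mogat2. The csf1r sum of Trematocara zebra, with 7 barcodes, was left out.

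Each class was highest for its own marker list, for 5 of 5 macrophage or dendritic markers found, 6 of 6 T or NK markers and 6 of 6 enterocyte markers. The classes are gates and not pure cell types. The csf1r class was also highest for 3 of 3 granulocyte markers found, csf3r, mmp9 and mmp13, with a summed level of 163 CPM (counts scaled to a total of 1000000 UMIs) at the median and 17.9 to 1271 over libraries, and its T or NK marker sum had a median of 168 CPM, against 1232 CPM in the lck class. The largest part of the T or NK sum in the csf1r class was cd247, at a mean of 110 CPM, 35.9% of its lck level. The other T or NK markers ran from 2.36% (cd3e) to 14.6% (tcf7) of their lck levels. The csf1r class was also highest for 4 of 5 fibroblast markers and 3 of 4 endothelial markers found, with median sums of 15.7 and 2.51 CPM. The lck class was highest for 5 of 5 B or plasma markers found, at a median sum of 408 CPM in the csf1r class, 542 CPM in the lck class and 240 CPM in the mogat2 class. Most of that sum was xbp1, at means of 493, 588 and 223 CPM, and 1 of the 5 is the member irf4, while the B cell gene cd79a averaged 3.93, 10.7 and 6.23 CPM. The lck class was highest for 4 of 4 cell cycle markers too, at median sums of 61.4, 275 and 26.6 CPM in the csf1r, lck and mogat2 classes. Their part in the results was not tested. As a yardstick for RNA free in the suspension, the enterocyte gene fabp2 averaged 577 CPM in the csf1r class and 564 CPM in the lck class, which is 4.30% and 4.21% of its 13406 CPM in the mogat2 class. In the opposite direction, the T cell gene cd3e averaged 3.67 CPM in the mogat2 class, 1.82% of its level in the lck class. The Haplotaxodon microlepis library stood apart, with 314 of the 856 barcodes positive for more than 1 gate gene, and at most 17 barcode sequences were shared by any of the 300 pairs of libraries.

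Members took up 0.272% of all kept UMIs. Their summed share was a median 0.35% of UMIs in the csf1r class (0.186 to 0.531%), 0.475% in the lck class (0.325 to 0.646%) and 0.145% in the mogat2 class (0.103 to 0.259%). The lowest lck library therefore lay above the highest mogat2 library. Of the 73 members, 52 passed a filter of a mean of 5 CPM over all library-by-class sums and were tested. Among the 52, 35 averaged at least 5 CPM in all 3 classes, 11 in 2 classes and 6 in 1 class. The 6 were irf8 and tnfsf12 (csf1r), nlrc3 (lck), and traf3ip2, ripk4 and tnfaip8l3 (mogat2). They passed the filter only through that class, which largely fixed their calls against it in advance. The same holds for irf4 and tnfrsf14, which averaged at least 5 CPM in 2 classes. irf4 averaged 7.15, 72.5 and 1.77 CPM and tnfrsf14 5.90, 13.0 and 1.20 CPM in the csf1r, lck and mogat2 classes. Without the lck sums neither would have reached the filter. nod1, at means of 7.83, 5.67 and 1.93 CPM in the same order, would not have reached it without the csf1r sums. Of the 52, 20 were highest in the csf1r class, 25 in the lck class and 7 in the mogat2 class. The same counts over all genes are not given here. These CPM rest on UMI totals. On that scale the median log2 fold change of all genes was 0.60 for csf1r over mogat2 and 0.38 for lck over mogat2.

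**Figure D1:**
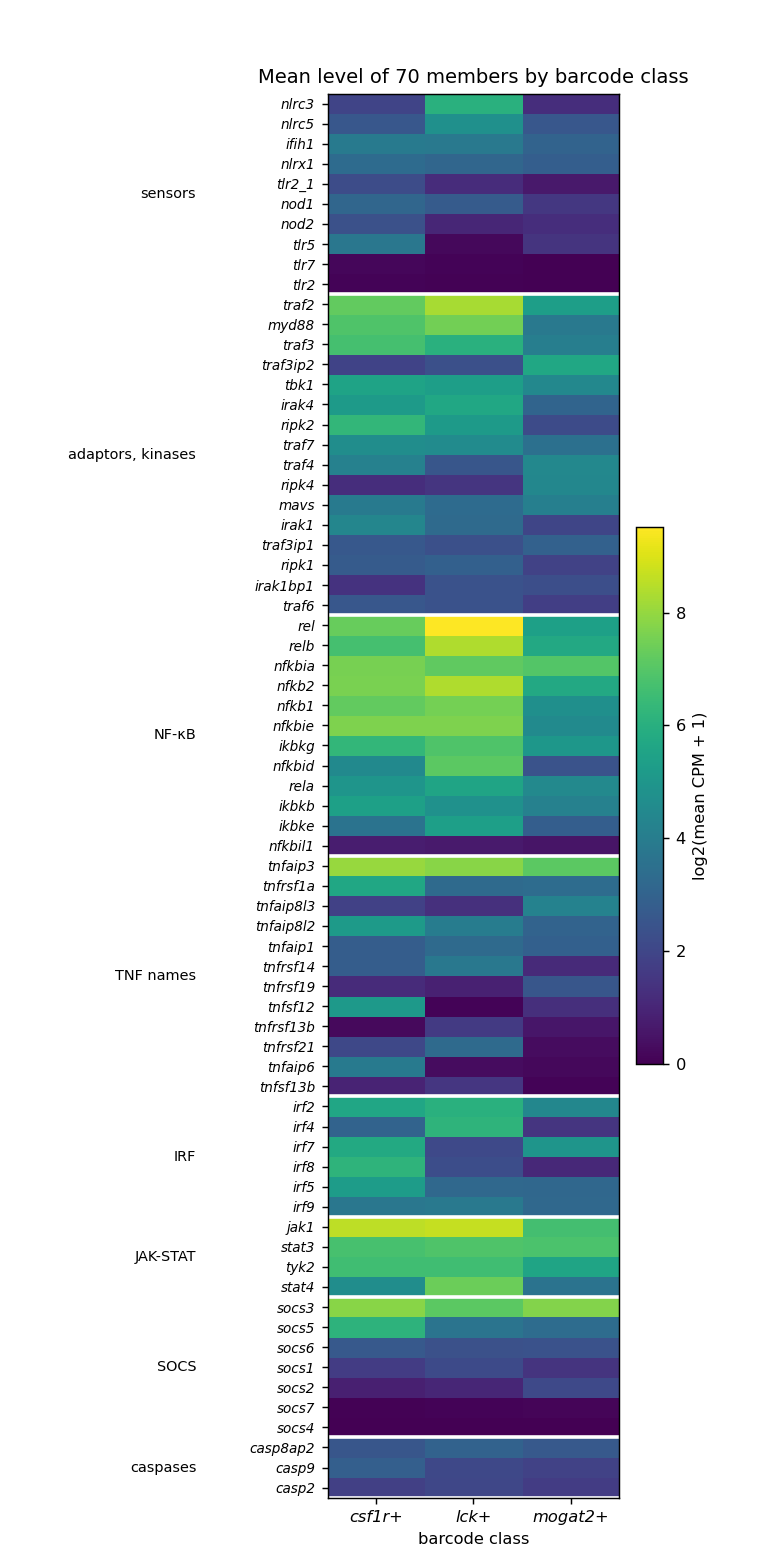
Mean level of 70 of the members, grouped by family, in the csf1r, lck and mogat2 classes, as log2(mean CPM + 1) over 24, 25 and 25 libraries. Along its row, rel is brightest in the lck column, where it averaged 728 CPM. The nfkbia row changes less, at 189 CPM in csf1r, 143 CPM in lck and 123 CPM in mogat2, with no difference called under TMM factors. On UMI totals, the scale of these CPM, nfkbia was called higher in csf1r. Its log2 fold change there was 0.39 over lck and 0.61 over mogat2 (adjusted p = 0.0149 and 0.000122 by edgeR). Along their rows, irf8 and tnfsf12 are bright in the csf1r column and traf3ip2 in the mogat2 column.

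The first comparison asks how the signalling genes of csf1r-positive barcodes differ from those of lck-positive barcodes. NF-κB subunits and their atypical inhibitor nfkbid, the T cell signal transducer stat4 and the sensors nlrc3 and nlrc5 were lower in the csf1r class, and irf8, irf7, irf5, socs5 and the TNF receptor tnfrsf1a were higher. Of these, irf8 and nlrc3 passed the filter only through the class where they are high. edgeR's quasi-likelihood test with library as a block and Benjamini-Hochberg adjustment over 10327 genes called 11 members higher in the csf1r class and 23 lower, while 18 of 52 were not called. Over all genes tested 65.4% were called, 29.7% higher and 35.7% lower, so that the members' share called was close to the background. The median log2 fold change, csf1r over lck, was −0.34 for the members and −0.16 for all genes. Of these calls, 29 also held with RLE factors and with UMI totals in place of TMM factors. For 3 members, irf8, irf7 and rel, the libraries of the classes did not overlap, beside 4.33% of all genes.

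Of the NF-κB genes, 8 of 11 tested were lower in the csf1r class, 1 was higher and 2 were not called, beside 35.7% of all genes lower and 29.7% higher. rel, the c-Rel subunit prominent in lymphocytes, had 85.4, 139 and 376 CPM in the csf1r class (lowest, median and highest library), against 436, 692 and 1142 CPM in the lck class. The classes did not overlap for rel, and its log2 fold change was −2.62 ± 0.16 (SE, adjusted p = 7.68e-21 by edgeR's quasi-likelihood test). relb, the subunit of the non-canonical route, averaged 103 ± 56.9 CPM in the csf1r class and 333 ± 171 CPM in the lck class (SD, n = 24 and 25), a log2 fold change of −2.08 ± 0.17. nfkbid, a nuclear IκB protein that modulates NF-κB target genes, averaged 21.9 ± 15.8 CPM in the csf1r class and 139 ± 64.3 CPM in the lck class, a log2 fold change of −3.02 ± 0.30.

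The other NF-κB subunits differed less. nfkb1 had a log2 fold change of −0.62 ± 0.16, which lost its call when UMI totals replaced TMM (−0.28). The inhibitor genes did not follow nfkbid: nfkbia, which encodes the classical IκBα, averaged 189 ± 73.7 CPM in the csf1r class and 143 ± 44.5 CPM in the lck class with a log2 fold change of 0.08 ± 0.13, and nfkbie, which encodes IκBε, averaged 201 ± 62.6 CPM in the csf1r class and 203 ± 73.8 CPM in the lck class (−0.31 ± 0.16, with its sign turned under UMI totals). Neither passed the test, with adjusted p = 0.627 for nfkbia and 0.0869 for nfkbie by edgeR. Under UMI totals nfkbia was called higher in the csf1r class, at 0.39 (adjusted p = 0.0149 by edgeR). tnfaip3, which encodes the feedback deubiquitinase A20, also did not pass, at a log2 fold change of −0.13 ± 0.15 whose sign depended on the scaling.

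Interferon regulatory factors split between the classes. irf8, required for macrophage and dendritic cell development in mammals, had 13.9, 69.2 and 134 CPM in the csf1r class (lowest, median and highest library), against 0, 2.56 and 13.5 CPM in the lck class. The lowest csf1r value, in Haplotaxodon microlepis, lay just above the highest lck value, and the log2 fold change was 4.12 ± 0.35 (adjusted p = 3.52e-15 by edgeR). The mean irf8 level in the lck class was 5.12% of that in the csf1r class. The macrophage or dendritic markers ran from 0.416% (marco) and 0.567% (mafb) through 2.74% (spi1) and 4.77% (lgmn) to 6.60% (cd74). irf7, a factor that drives type I interferon transcription, had 13.9, 38.8 and 273 CPM in the csf1r class, against 0, 2.25 and 12.4 CPM in the lck class, with no overlap and a log2 fold change of 3.65 ± 0.39. irf4, a factor of lymphocyte differentiation and plasma cells, showed the opposite order, with 0, 4.69 and 29.1 CPM in the csf1r class, against 15.3, 59.9 and 180 CPM in the lck class. Its classes overlapped and its log2 fold change was −3.76 ± 0.29, but irf4 passed the filter only through the lck class. irf5, named after its values were seen, acts downstream of Toll-like receptors in myeloid cells and was higher in the csf1r class at 1.90 ± 0.18.

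Among the 10 sensors, 5 were tested, of which 2 were lower in the csf1r class and none higher. Of all genes tested 35.7% were lower and 29.7% higher, so this count is near the background. The sensors under the filter, tlr5 among them, are described below. nlrc3, an NLR protein that restrains T cell signalling in mammals, averaged 2.89 ± 3.66 CPM in the csf1r class and 65.4 ± 36.3 CPM in the lck class, a log2 fold change of −4.97 ± 0.29 (adjusted p = 3.31e-21 by edgeR). Fish genomes carry many nlrc3-like genes, so reads of near-identical copies may be split or shared and the nlrc3 level is uncertain. nlrc5, an activator of MHC class I genes, had a log2 fold change of −2.77 ± 0.26. nod1, a sensor of bacterial cell wall peptides, did not pass, at 7.83 ± 8.38 CPM in the csf1r class and 5.67 ± 5.16 CPM in the lck class.

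The remaining families were mixed. stat4, which carries interleukin-12 signals in T and NK cells, averaged 24.1 ± 13.6 CPM in the csf1r class and 165 ± 121 CPM in the lck class (log2 fold change −3.08 ± 0.27), and traf2, an adaptor of TNF receptors, had −1.32 ± 0.15 on the same scale. myd88, the adaptor of most Toll-like receptors, averaged 116 ± 49.7 CPM in the csf1r class and 179 ± 74.6 CPM in the lck class, a log2 fold change of −0.97 ± 0.16. On the higher side, tnfrsf1a, the main receptor of soluble TNF, averaged 50.2 ± 23.0 CPM in the csf1r class and 8.73 ± 5.69 CPM in the lck class (2.34 ± 0.16), and socs5, an inhibitor of cytokine receptors, averaged 70.5 ± 54.7 CPM in the csf1r class and 11.6 ± 5.48 CPM in the lck class (2.18 ± 0.20). tnfsf12, the TNF-family ligand TWEAK, had 493 UMIs in the csf1r class, against 2 UMIs in the lck class, where 23 of 25 libraries were at 0. Its fitted fold change depends on the prior count and is not given as a size. jak1 and stat3 were called lower, at −0.44 ± 0.11 and −0.48 ± 0.12, but both lost the call under UMI totals and turned to 0.11 and 0.0082 when the gate needed at least 2 UMIs.

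**Figure D2:**
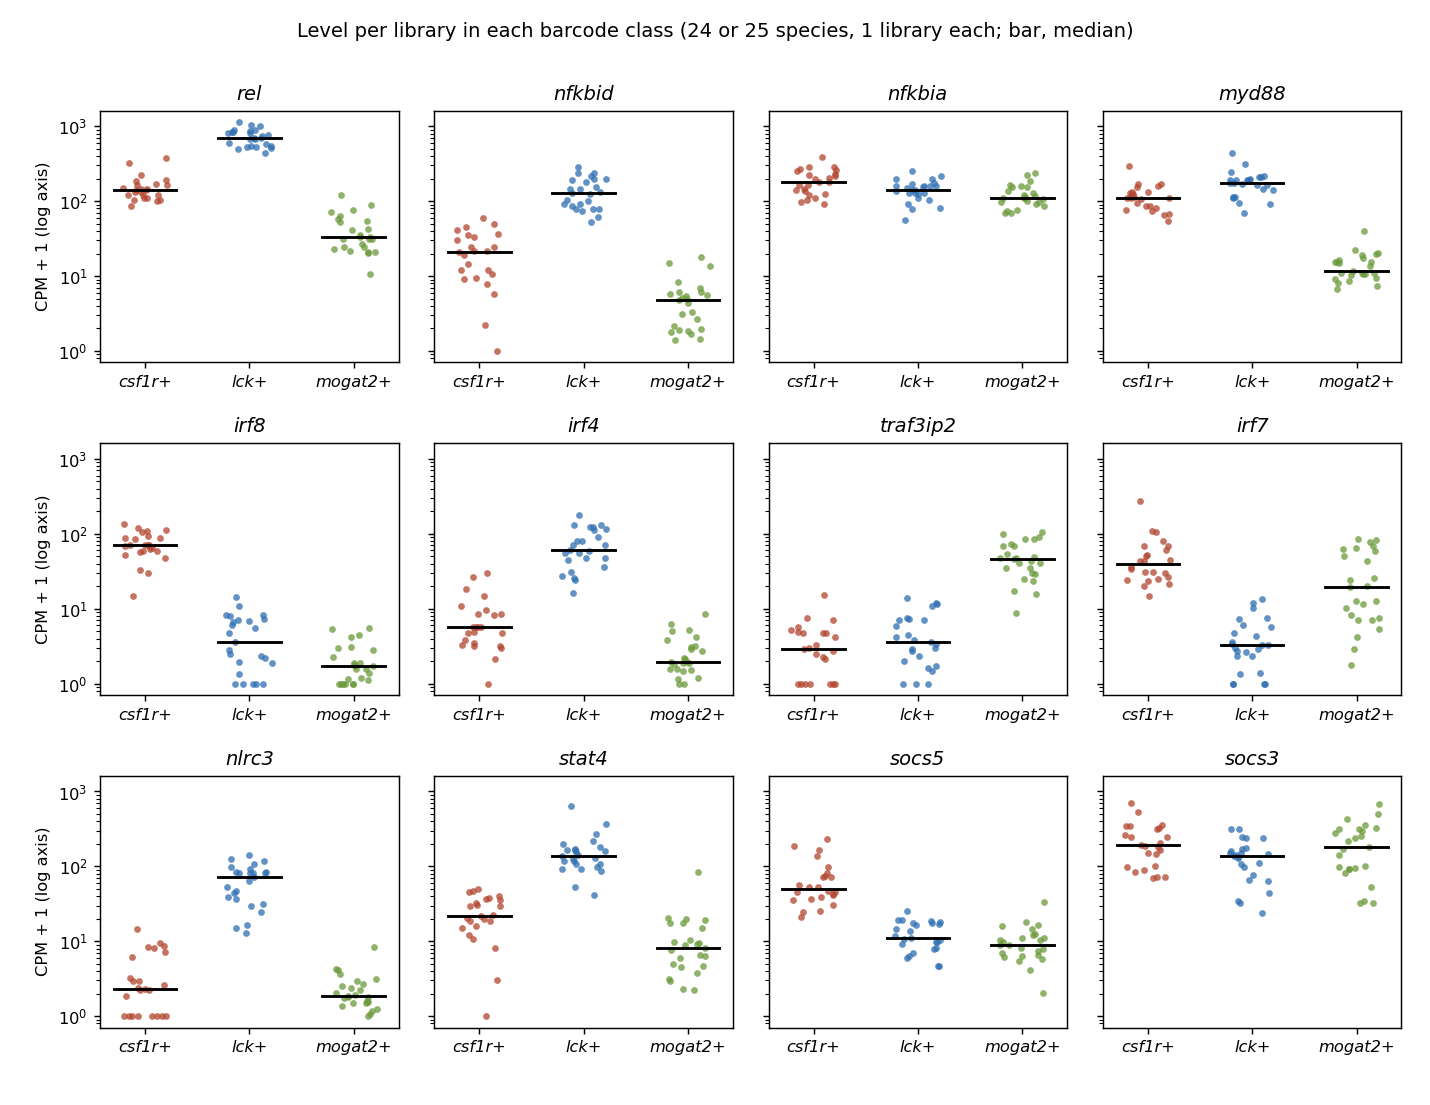
Level of 12 members in each library, as CPM + 1 on a log axis, in the csf1r, lck and mogat2 classes of 24, 25 and 25 species, with the median as a bar. rel, nfkbid, nlrc3, irf4 and stat4 are highest in lck, irf8 and socs5 in csf1r and traf3ip2 in mogat2, while nfkbia and socs3 overlap across the 3 classes.

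Against the mogat2 class, irf8, the adaptor myd88, the kinase ripk2 and 7 of 11 tested NF-κB genes were higher in the csf1r class, and traf3ip2, ripk4 and tnfaip8l3 were lower. Of these, irf8 passed the filter only through the csf1r class, and traf3ip2, ripk4 and tnfaip8l3 only through the mogat2 class. Adaptors and kinases divided, with 7 of 13 higher in the csf1r class and 5 lower. edgeR's quasi-likelihood test called 27 members higher in the csf1r class, 13 lower and 12 not, where 71.9% of all genes were called, 30.6% higher and 41.2% lower. The members' median log2 fold change, csf1r over mogat2, was 0.36, against −0.16 for all genes. All 27 higher calls and 7 of the 13 lower calls held under all 3 scalings. The members' share called, 76.9%, was near that of all genes. For 6 members the libraries of the classes did not overlap, beside 6.62% of all genes.

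irf8 had a log2 fold change of 5.43 ± 0.36 (adjusted p = 6.43e-20 by edgeR), with at most 4.48 CPM in any mogat2 library. The adaptor myd88 had 53.1, 109 and 293 CPM in the csf1r class (lowest, median and highest library), against 5.70, 10.6 and 38.9 CPM in the mogat2 class, with no overlap and a log2 fold change of 2.34 ± 0.17. ripk2, the kinase downstream of nod1 and nod2, averaged 78.2 ± 62.7 CPM in the csf1r class and 3.54 ± 3.66 CPM in the mogat2 class, a log2 fold change of 3.98 ± 0.25, also with no overlap. ripk2 was named after its values were seen. nod1 itself was higher by 1.45 ± 0.29. It would not have reached the filter without the csf1r sums, which largely fixed this call in advance. The inhibitor and subunit genes nfkbie, nfkb1 and nfkbid were higher by 2.53 ± 0.17, 1.86 ± 0.16 and 1.90 ± 0.31.

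On the lower side, traf3ip2, the Act1 adaptor of interleukin-17 receptors, had 0, 1.92 and 14.4 CPM in the csf1r class (lowest, median and highest library), against 7.80, 45.6 and 105.6 CPM in the mogat2 class. The classes overlapped, with the lowest mogat2 value in Haplotaxodon microlepis, and traf3ip2 was lower in the csf1r class in 24 of 24 libraries. Its log2 fold change was −4.95 ± 0.32 (adjusted p = 6.12e-20 by edgeR). ripk4, a kinase of epithelial differentiation, and tnfaip8l3, a TNFAIP8-family lipid transfer protein, fell by 4.80 ± 0.34 and 3.79 ± 0.32 on the same scale. The mean csf1r level was 5.56% of the mogat2 level for traf3ip2, 6.94% for ripk4 and 14.5% for tnfaip8l3, beside the 4.30% of fabp2.

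Several widely expressed regulators gave small differences that the scaling could turn. socs3, the feedback inhibitor of STAT3-type cytokines, averaged 228 ± 154 CPM in the csf1r class and 216 ± 162 CPM in the mogat2 class. Its call, a log2 fold change of −0.61 ± 0.27 with adjusted p = 0.0409 by edgeR, turned to 0.17 under UMI totals and was lost without any 1 of 14 libraries, with adjusted p up to 0.134 without Perissodus microlepis. stat3 was called at −0.78 ± 0.12 but was 0.0017 under UMI totals. nfkbia, tnfaip3 and relb did not pass with TMM, and the sign of nfkbia depended on the scaling. Under UMI totals all of them were called higher in the csf1r class, at 0.61, 0.94 and 1.00. Their adjusted p were 0.000122, 3.26e-07 and 1.61e-06 by edgeR, alongside a shift of 0.76 in the median of all genes. nlrc5 was called at −0.68 ± 0.26 but was −0.019 and not called under UMI totals, and it had adjusted p = 0.0503 without Julidochromis ornatus and 0.0505 without Telmatochromis vittatus, both by edgeR.

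Between the 2 largest classes, 9 of 11 tested NF-κB genes were higher in the lck class than in the mogat2 class, as were irf4, nlrc3 and stat4. Of these, nlrc3 and irf4 passed the filter only through the lck class. Adaptors and kinases divided, with 8 of 13 higher in the lck class and 5 lower. edgeR's quasi-likelihood test called 30 members higher in the lck class, 13 lower and 9 not, where 75.3% of all genes were called, 35.1% higher and 40.3% lower. The median log2 fold change, lck over mogat2, was 0.58 for the members and −0.06 for all genes. The members' share called was 82.7%. For 11 members the libraries of the classes did not overlap, beside 6.83% of all genes. Of the 11, 4 were NF-κB genes (rel, relb, nfkbid and nfkbie) and 4 were adaptors or kinases (myd88, traf2, traf3 and irak4).

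With TMM factors, none of the 11 NF-κB genes was called lower in the lck class. nfkbia did not pass, and its sign depended on the scaling. RLE factors called it lower, at −0.40 (adjusted p = 0.00564 by edgeR), while UMI totals gave 0.22 and no call. The rel range of 436 to 1142 CPM in the lck class faced 9.56, 32.3 and 119 CPM in the mogat2 class (lowest, median and highest library), a log2 fold change of 3.85 ± 0.16 (adjusted p = 9.29e-27 by edgeR). The highest mogat2 value came from Haplotaxodon microlepis, the library with the most mixed barcodes. nfkbid had 52.5, 128 and 288 CPM in the lck class, against 0.416, 3.80 and 16.8 CPM in the mogat2 class, and a log2 fold change of 4.92 ± 0.31. myd88 had 68.7, 176 and 433 CPM in the lck class, above the 38.9 CPM of the highest mogat2 library, and a log2 fold change of 3.31 ± 0.17.

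nlrc3 and irf4 had the steepest higher calls of the list. nlrc3 had 11.8, 71.5 and 140 CPM in the lck class, against 0, 0.855 and 7.31 CPM in the mogat2 class, a log2 fold change of 5.46 ± 0.26 (adjusted p = 6.09e-25 by edgeR), and irf4 had a log2 fold change of 5.19 ± 0.28. The mean nlrc3 level in the mogat2 class was 1.38 CPM and that of irf4 1.77 CPM, both low beside their lck levels, as cd3e was. tnfrsf14, the receptor HVEM that binds the lymphocyte inhibitor BTLA, averaged 13.0 ± 11.3 CPM in the lck class and 1.20 ± 1.34 CPM in the mogat2 class (2.85 ± 0.35). Like nlrc3 and irf4, it passed the filter only through the lck class.

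Genes lower in the lck class included irf7 and 3 members that were also lower in the csf1r class. traf3ip2 fell by 4.21 ± 0.29 on the log2 scale, ripk4 by 4.00 ± 0.29 and tnfaip8l3 by 4.24 ± 0.31. These 3 members passed the filter only through the mogat2 class, which largely fixed their calls against it in advance. irf7 averaged 3.30 ± 3.43 CPM in the lck class and 29.98 ± 28.6 CPM in the mogat2 class, a log2 fold change of −3.38 ± 0.38 (adjusted p = 1.96e-11 by edgeR), with overlapping classes. mavs, the mitochondrial adaptor of RIG-I-like receptors, and traf4, an epithelial TRAF protein, were also lower, at −1.45 ± 0.19 and −2.63 ± 0.31, and were named after their values were seen. socs3 was lower at −0.98 ± 0.27 and was called lower under all 3 scalings, at −1.13 with RLE factors and −0.56 with UMI totals, while stat3 at −0.30 ± 0.12 turned to 0.14 under UMI totals and lost its call without any 1 of 4 libraries.

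**Figure D3:**
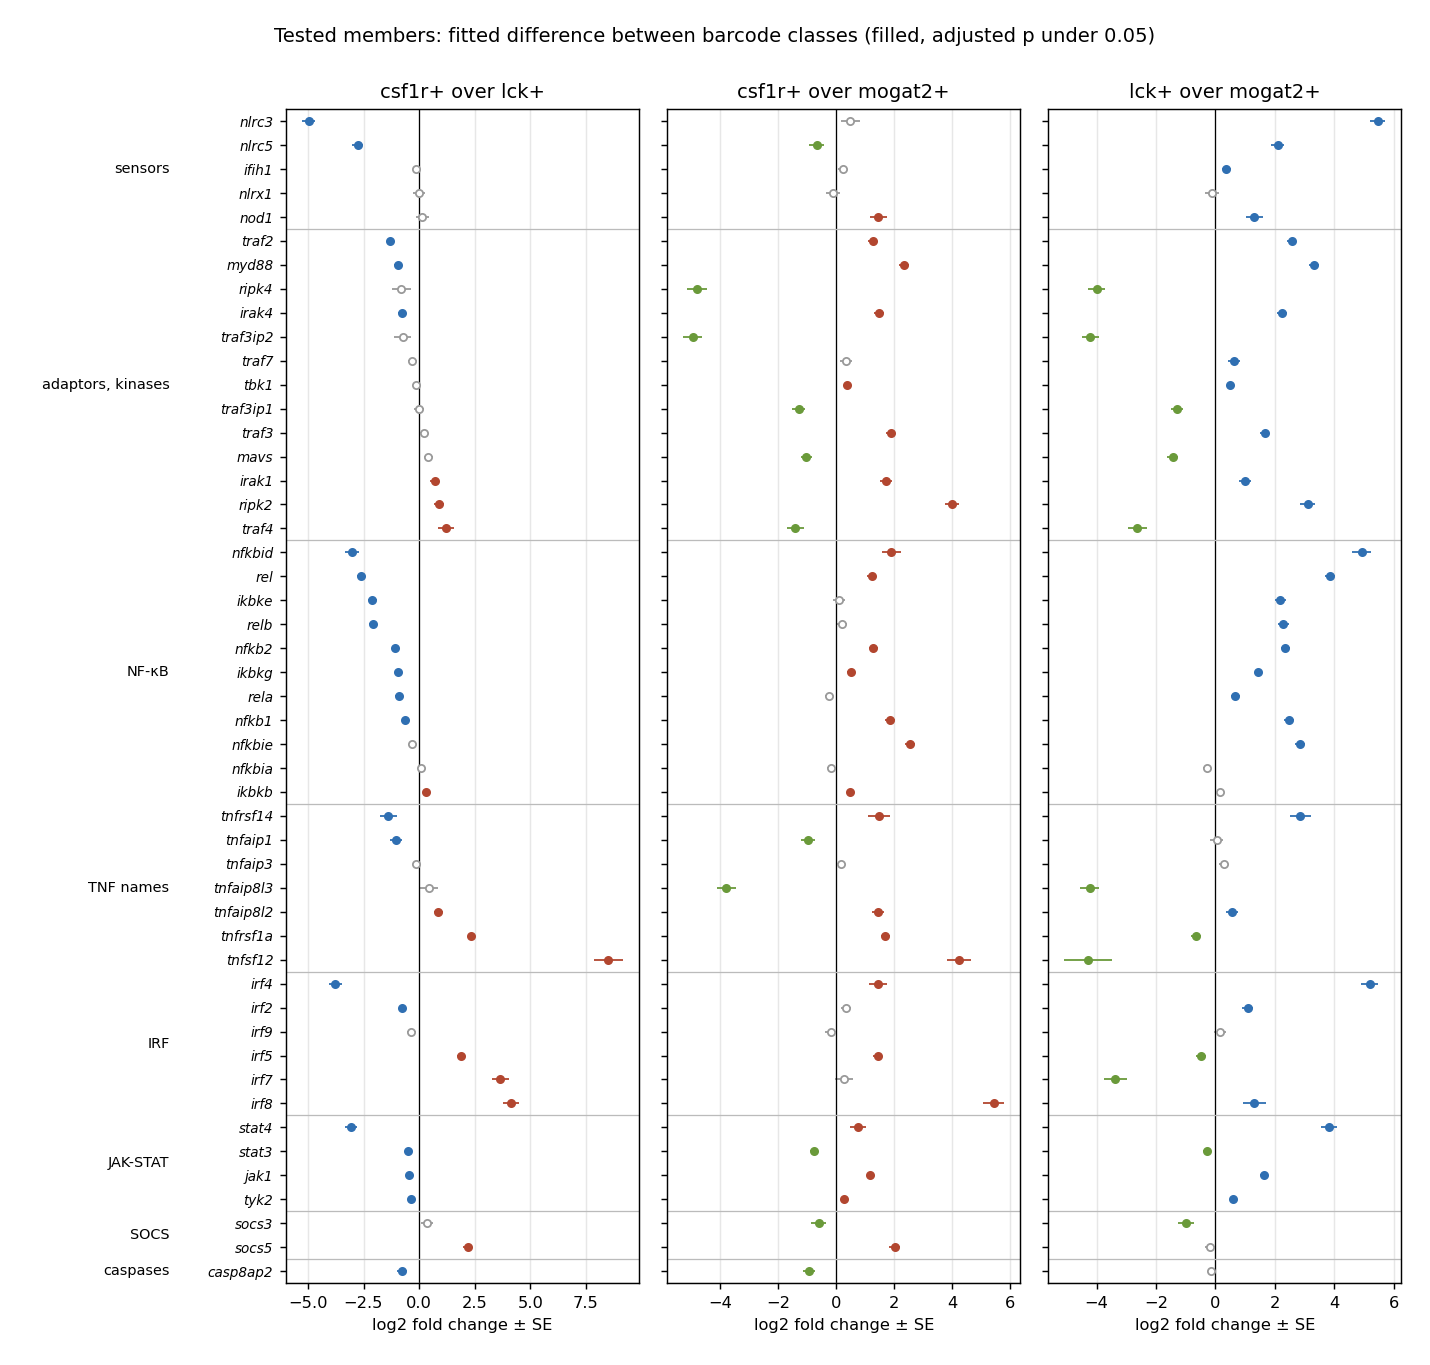
Fitted log2 fold change with its standard error for 49 of the tested members, by family, for csf1r over lck, csf1r over mogat2 and lck over mogat2; filled points have an adjusted p under 0.05 and take the colour of the higher class. No bar is drawn for casp8ap2 in the panel of lck over mogat2, where no standard error follows from edgeR's p. Of 11 NF-κB genes, 8 are filled left of 0 and 1 right of 0 in the first panel, and 9 are filled right of 0 in the panel of lck over mogat2. Far left in both panels with mogat2 lie traf3ip2, ripk4 and tnfaip8l3, which passed the filter only through the mogat2 class.

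Scaling moved the whole distribution. Using UMI totals in place of TMM shifted the median log2 fold change of all genes by 0.31 for csf1r over lck, 0.76 for csf1r over mogat2 and 0.44 for lck over mogat2. With UMI totals 61.2%, 69.5% and 60.9% of all calls were higher, against 45.4%, 42.6% and 46.5% with TMM. The counts of members under UMI totals were 15 higher and 18 lower, 39 higher and 7 lower, and 33 higher and 10 lower.

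Low-level sensors could not be tested in the same fit. Of the 21 members under the filter, tlr5, the flagellin receptor, had 211 UMIs in the csf1r class, 9 UMIs in the lck class and 273 UMIs in the mogat2 class, which are means of 12.6, 0.154 and 1.68 CPM. With no filter on low counts, edgeR called tlr5 higher in csf1r than in lck (adjusted p = 1.89e-16). Its fitted fold change over lck depends on the prior count and is not given as a size. Over mogat2 its log2 fold change was 2.94 in that fit (adjusted p = 3.35e-11 by edgeR). tlr5 was at 0 in 1 of 24 csf1r libraries and in 20 of 25 lck libraries. The viral RNA receptor tlr7 had 2, 3 and 4 UMIs in the csf1r, lck and mogat2 classes. tlr2 had 1, 1 and 0, while a second entry of that name, tlr2_1, had 53, 31 and 58, which are means of 3.69, 1.32 and 0.588 CPM, with a log2 fold change of 1.82 for csf1r over mogat2 and adjusted p = 0.00274 by edgeR without the filter. How reads were divided between these entries is not given in the sources used here.

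tnfaip6, an inflammation-induced matrix protein, held 202 UMIs in the csf1r class, against 10 in the lck class and 30 in the mogat2 class, which are means of 13.6, 0.251 and 0.160 CPM. Its csf1r level rested on few libraries, with 147 CPM in Neolamprologus brichardi and 93.4 CPM in Julidochromis ornatus, a median of 1.38 CPM and 11 of 24 libraries at 0. socs1, the inhibitor of interferon receptors, averaged 2.21, 3.39 and 1.68 CPM in the csf1r, lck and mogat2 classes and was not called in any contrast without the filter. socs2, another inhibitor of cytokine receptors, averaged 0.785 CPM in the csf1r class, 1.01 CPM in the lck class and 3.29 CPM in the mogat2 class, from 14, 29 and 584 UMIs. nfkbil1, an IκB-like protein named by symbol, stayed under 1 CPM on average in every class.

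Other genes of the same pathways, outside the name rule, were listed as 84 symbols, of which 44 were found and 41 tested. For csf1r over lck, 16 were higher, 16 lower and 9 not called by edgeR, with a median log2 fold change of −0.23. Of all genes 29.7% were higher and 35.7% lower there, with a median of −0.16. For csf1r over mogat2 the counts were 18 higher, 9 lower and 14 not called (median 0.28), and for lck over mogat2 22, 8 and 11 (median 0.44). Beside them, 30.6% of all genes were higher and 41.2% lower for csf1r over mogat2 (median −0.16). For lck over mogat2 it was 35.1% and 40.3% (median −0.06). unc93b1, the chaperone of endosomal Toll-like receptors, averaged 192 CPM in the csf1r class, 18.8 CPM in the lck class and 14.1 CPM in the mogat2 class, a log2 fold change of 2.99 ± 0.16 over lck and 3.03 ± 0.16 over mogat2. ifngr1, a chain of the interferon gamma receptor, averaged 3.06, 4.00 and 79.0 CPM in the csf1r, lck and mogat2 classes. Both genes were named after their values were seen.

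Across the 25 species the summed share of the members in all kept barcodes ran from 0.151% in Trematocara zebra to 0.461% in Petrochromis orthognathus. All 25 species share 1 feature list, the reference is not given in the sources used here, and the part of unequal mapping between species in their levels was not tested. In all kept barcodes 43 members averaged at least 10 CPM, and the SD of log2(CPM + 10) over libraries had a median of 0.54 for them, against 0.50 for 7493 genes at that level. The widest was socs3, with 66.1 CPM in Trematocara zebra, a median of 286 CPM and 746 CPM in Tropheus moorii, an SD of 0.85. nfkb1, rel, stat4, irf7, relb, nfkbid and myd88 followed with SDs of 0.83, 0.81, 0.79, 0.78, 0.78, 0.74 and 0.74. The exact Poisson intervals of the lowest and highest socs3 values, 62.6 to 69.8 CPM and 734 to 758 CPM, cover counting error only and do not overlap.

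Levels of part of the members in whole libraries moved with the share of lck or mogat2 barcodes, and those of fewer members with the csf1r share. In such sums fewer cells of a type and less RNA per cell cannot be told apart. The level of each of the 43 members on the log2(CPM + 10) scale was set against the share of csf1r, lck and mogat2 barcodes over the 25 libraries, a relation looked at after the data were seen. It is given as a description, with no test, since many of the members named below were chosen for a large difference between the same classes or a wide spread over libraries, which largely fixes the direction. With the csf1r share the median Pearson's r was 0.18 for the 43 members and 0.23 for 7493 genes. With the lck share it was 0.23 for the members and −0.07 for the genes, and with the mogat2 share −0.49 and −0.27 for members and genes. An r under −0.5 with the mogat2 share was found for 21 members, 48.8% of them, and for 27.0% of the genes. myd88 had r = −0.83 and Spearman's rho = −0.83 with the mogat2 share, and r = −0.82 without the 2 libraries farthest from the median share. relb had r = 0.77 with the lck share, and 0.63 without the 2 farthest libraries, while irf4 had r = 0.60, and 0.30 without them.

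**Figure D4:**
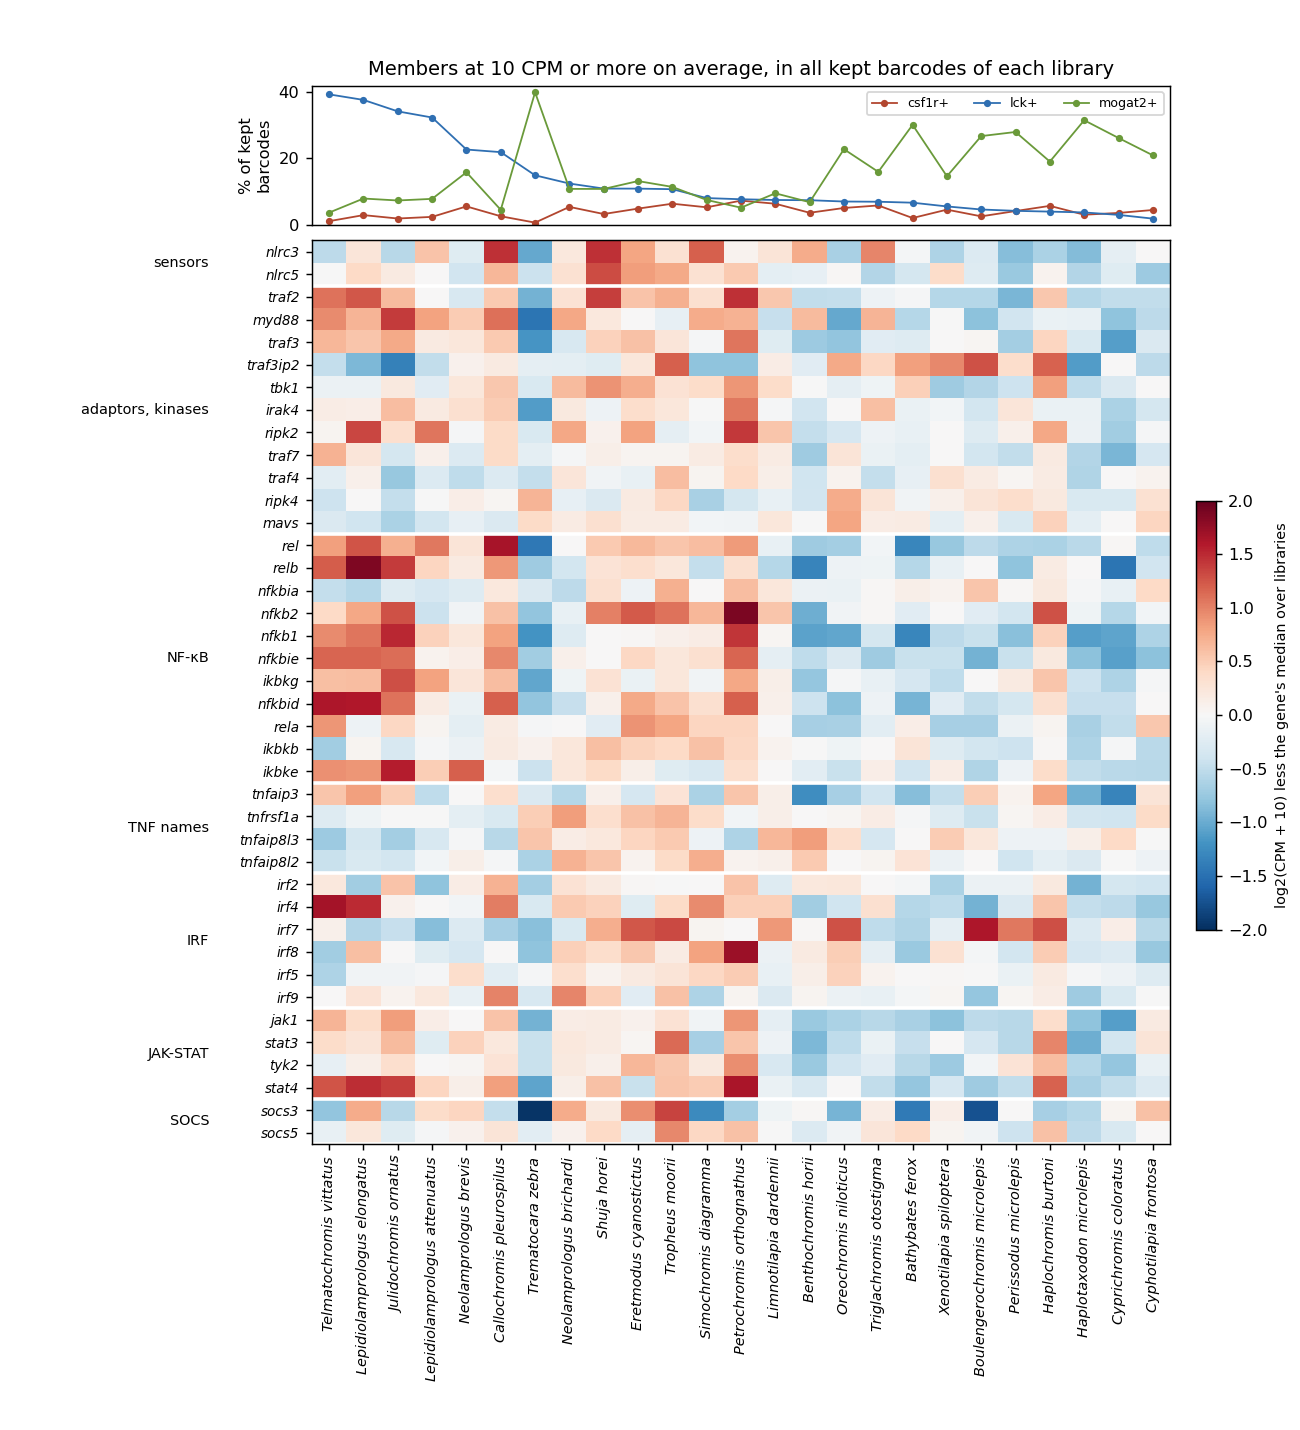
Level of 40 members at 10 CPM or more in all kept barcodes of each library, as log2(CPM + 10) less the gene's median over libraries, with the libraries ordered by their share of lck-positive barcodes and the shares of the 3 classes above. rel, relb, nfkb1, nfkbie and nfkbid are darkest red mainly in the lck-rich libraries at the left. Petrochromis orthognathus, with 7.68% lck barcodes, is also high for nfkb1 (243 CPM) and nfkbie (196 CPM). socs3 varies without that order, while irf7 leans the other way (r = −0.40 with the lck share).

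Within the classes the members varied about as much as other genes. Among genes at a mean of 20 CPM or more, the median SD was 0.58 for 32 members and 0.58 for 4532 genes in the csf1r class, 0.56 for 29 members and 0.55 for 3945 genes in the lck class, and 0.56 for 20 members and 0.60 for 3634 genes in the mogat2 class. In the mogat2 class socs3 was widest, at 31.3, 181 and 677 CPM (Julidochromis ornatus, the median and Eretmodus cyanostictus), an SD of 1.16. irf7 in the same class was 0.758 CPM in Trematocara zebra, 18.3 CPM at the median and 84.3 CPM in Haplochromis burtoni. Its csf1r level was highest, at 273 CPM, in Eretmodus cyanostictus.

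A few libraries held many of the extremes. Haplotaxodon microlepis was lowest for 14 of 32 members in the csf1r class, where it had 102 barcodes, and was the library with the most csf1r and mogat2 double-positive barcodes, 196 of 315. Petrochromis orthognathus was highest for 7 of 20 members in the mogat2 class, where it had the fewest barcodes of any library, 124. stat4 stood there at 83.2 CPM in Petrochromis orthognathus, against 19.4 CPM in the next library, Tropheus moorii. How often these libraries were extreme over all genes is not given here, so the counts cannot be read as particular to the members. The part of these libraries' depth and mixed barcodes in the extremes was not tested.

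The level of socs3 was set beside 5 early-response genes over the libraries of each class, 15 relations chosen after the data were seen. Their permutation p treat the libraries as independent and may be too small, since the species are related to differing degrees. In the csf1r class, socs3 was related to fosb (r = 0.54, rho = 0.58), egr1 (0.52 and 0.52) and ier2 (0.56 and 0.52), each with adjusted permutation p = 0.0349 for r and 0.0449 for rho over 24 libraries. Without the 2 libraries farthest from the median these r were 0.67, 0.37 and 0.46. In the lck class none of the 5 passed both tests, but several missed narrowly. dusp1, atf3 and ier2 had r = 0.52, 0.49 and 0.46 (adjusted permutation p = 0.0349, 0.0373 and 0.0499, and 0.0505 each for rho). egr1 passed for rho only (rho = 0.50, adjusted permutation p = 0.0449). Without the 2 farthest libraries the r of dusp1, atf3, ier2 and egr1 were 0.58, 0.45, 0.49 and 0.42. The difference between these 2 classes thus rests on the threshold. Relations of socs3 to all other genes are not given here. In the mogat2 class none passed either test, and the highest r was 0.42, for ier2.

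Members varied together between classes about as much as other genes. Levels on the log2(CPM + 10) scale were related between each pair of classes for members with enough counts, 89 relations in all, also chosen after the data were seen. Of these, 28 passed for both Pearson's r and Spearman's rho after adjustment. At or above the lowest r that passed in each pair, 0.49, 0.47 and 0.54, were 44.4% of members and 39.1% of genes between csf1r and lck, 32.3% and 36.5% between csf1r and mogat2, and 25.8% and 26.4% between lck and mogat2. The median r was 0.47 for 27 members and 0.42 for 4013 genes between csf1r and lck, 0.33 for 31 members and 0.40 for 4507 genes between csf1r and mogat2, and 0.41 for 31 members and 0.42 for 5506 genes between lck and mogat2. All classes of a library share its preparation, its free RNA and its reference, and the part of these in the relations was not tested. The permutations treat the libraries as independent, but the species are related to differing degrees and some share a genus. The permutation p may therefore be too small, and the part of shared ancestry was not tested.

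Only tyk2, tbk1 and ikbkb passed in all 3 pairs; all were named after their values were seen. tyk2, a JAK-family kinase of interferon receptors, had r = 0.72 between csf1r and lck, 0.74 between csf1r and mogat2 and 0.74 between lck and mogat2 (adjusted permutation p = 0.00156, 0.00160 and 0.000890), with rho = 0.75, 0.76 and 0.74. Without the 2 libraries farthest from the median its r was 0.75, 0.78 and 0.69. tbk1, the kinase that activates interferon regulatory factors, had r = 0.55, 0.69 and 0.79, and 0.37, 0.60 and 0.73 without the 2 farthest libraries. Its level was lowest in Xenotilapia spiloptera in all 3 classes, at 16.9 CPM in csf1r, 13.1 CPM in lck and 7.24 CPM in mogat2. ikbkb, the catalytic IκB kinase subunit, had r = 0.50, 0.47 and 0.64, and 0.50, 0.43 and 0.50 without the 2 farthest libraries. The share of all genes with a lower r was 93.0%, 96.1% and 96.2% for tyk2, 71.4%, 92.7% and 97.9% for tbk1 and 63.1%, 63.5% and 87.4% for ikbkb. The feedback inhibitor nfkbia, in contrast, had r = 0.24, 0.12 and 0.14, none of which passed, and myd88 had r = −0.26 between csf1r and mogat2, which did not pass.

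**Figure D5:**
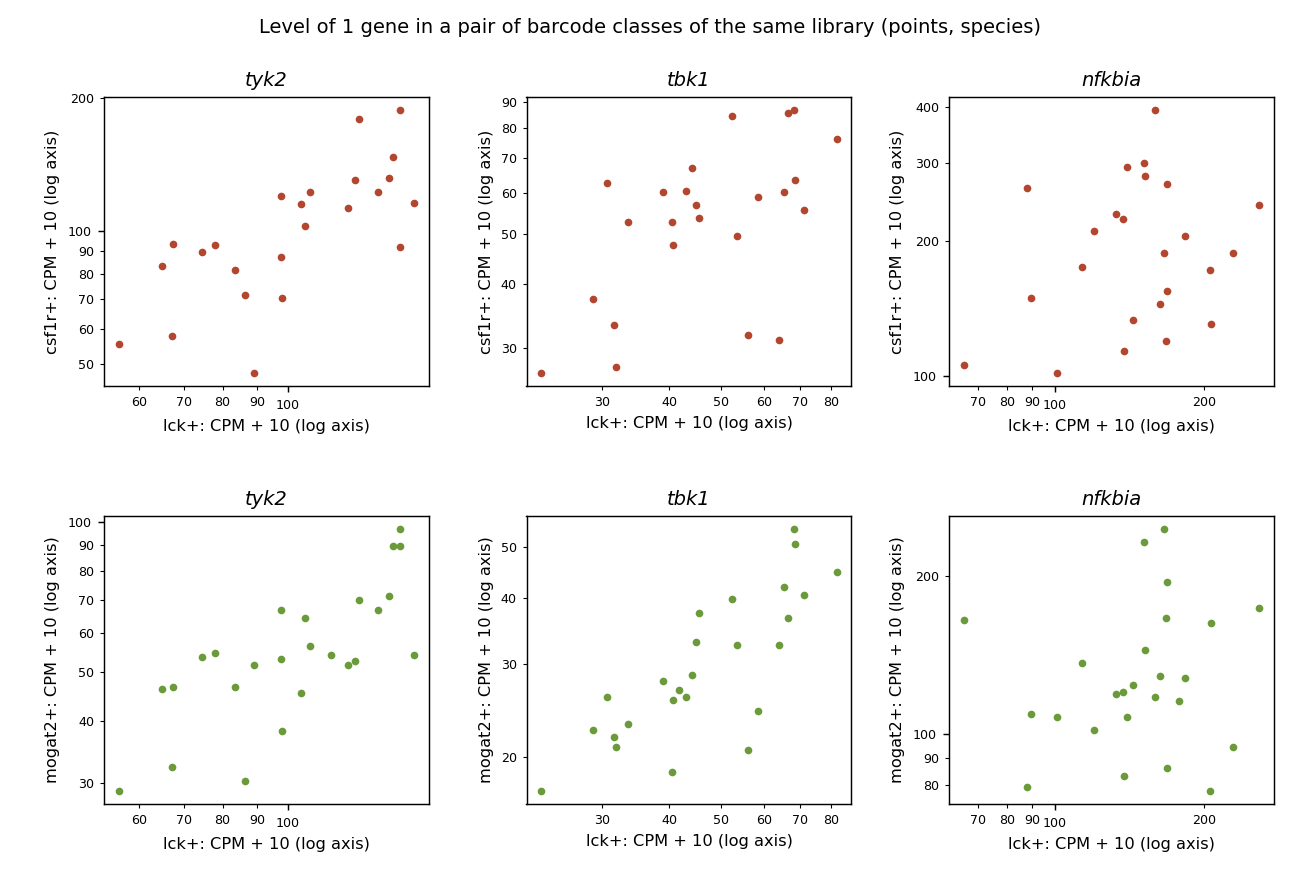
Level of tyk2, tbk1 and nfkbia in the csf1r class (top) and the mogat2 class (bottom) against the lck class of the same library, as CPM + 10 on log axes, for 24 and 25 species. Points for tyk2 and tbk1 rise together with r of 0.55 to 0.79, and points for nfkbia scatter with r of 0.24 and 0.14.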

How the data were processed

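Intestinal cells of 25 cichlid species, 1 library each, were profiled with 10x Genomics 3′ v3.1 chemistry, per the labels' protocols. Each deposited file is a matrix of unnormalized UMI counts by gene and barcode from Cell Ranger 5.0.0, per the file headers. The labels give no batch. Genome build, annotation and cell-calling settings are not given in the sources used here. Barcodes with at least 500 UMIs and 250 genes were kept, and doublets were removed with a simulated-doublet score at an expected rate of 0.8% per 1000 barcodes (3567 removed). Counts were summed per library and class (74 sums of at least 10 barcodes). Genes with a mean of at least 5 CPM over the sums entered edgeR 4.0.16 (TMM, library as a block, quasi-likelihood test, Benjamini-Hochberg adjustment per contrast), leaving out the 3 gate genes. The block reflects that the sums of a library come from the same preparation. CPM of these 3′ counts are not scaled by length, so levels of different genes are not compared. The members, gene lists and tests were chosen with earlier results of these data known. Named members are the 2 with the largest called change per family and contrast that moved the same way in at least 80% of libraries, the most abundant of each family, the 8 that varied most over libraries, and a fixed set that included NF-κB inhibitors, myd88, stat3, irf8 and socs1. This gave 31 members, of which some are not reported here, and others are said to be named after their values were seen. Tested on simulated data with 10327 genes, the fit recovered 14.9%, 79.1% and 100% of 1.5-, 2- and 4-fold changes in csf1r over lck, with 5 false calls. For csf1r over mogat2 it recovered 16.4%, 85.1% and 100%, with 7 false calls. The simulation had no differences between species and changed a small part of the genes, equally up and down. Most genes were called in the data, so the simulation cannot speak to the choice of scaling. Intervals are exact Poisson at the 95% level. Alternatives included RLE factors, UMI totals, DESeq2 1.42.0, other filters and gates, equal depth within libraries and leaving out each library.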

Additional observations from a re-analysis of the deposited data

How the results depend on the processing

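Counts of members called ranged, over fits leaving out each library in turn, from 11 to 12 higher and 23 to 24 lower for csf1r over lck, 26 to 29 and 11 to 14 for csf1r over mogat2, and 29 to 32 and 12 to 14 for lck over mogat2. Without library as a block the counts were 11 and 23, 26 and 12, and 29 and 12. In that fit 65 of 68 named values kept call and direction. There the call was lost by nlrc5 (−0.51) and stat4 (0.61) for csf1r over mogat2 and by stat3 (−0.28) for lck over mogat2. A filter of a mean of 20 CPM, which tests fewer members, left 6 higher for csf1r over lck, 3 lower for csf1r over mogat2 and 5 lower for lck over mogat2. A gate of at least 2 UMIs left 14 lower for csf1r over lck and turned jak1 to 0.11 and stat3 to 0.0082 there, and the cause was not tested. UMI totals left 7 lower for csf1r over mogat2 and turned socs3 (0.17) and stat3 (0.0017) in that contrast and stat3 (0.14) for lck over mogat2, alongside the shift of all genes. Without Trematocara zebra and Haplotaxodon microlepis 64 of 66 named values kept call and direction, with DESeq2 and RLE factors 68 of 68 did, with UMI totals 60 of 68 (5 lost the call and 3 turned), with the gate of at least 2 UMIs 60 of 66 (4 lost and 2 turned), with equal depth within libraries 63 of 66, and over the fits leaving out each library 1674 of 1694. In the fits leaving out a library, tyk2 for csf1r over mogat2 had adjusted p = 0.0658 without Petrochromis orthognathus, and irf5 for lck over mogat2 0.0544 without Perissodus microlepis, both by edgeR. The median SD over libraries was 0.75 with log2(CPM + 1) and 0.54 with all deposited barcodes. Depth limits members under 5 CPM, and the smallest p the permutations can give is 1e-05.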
